A study of Mus musculus with 6 samples.

Results

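The genes described here encode the eukaryotic translation initiation factors and the kinases that act on one of them, eIF2. They were chosen by name alone, as the protein-coding mouse genes whose symbol starts with Eif1 to Eif6. Eif2s3x and Eif2s3y, the X- and Y-linked genes of the third eIF2 subunit, were left out by the same rule. The rule found 53 of the 56393 genes in the table. The RNA sequencing data come from primary mouse vascular smooth muscle cells (VSMC), the contractile cells of the vessel wall, grown in medium with 20% serum and given no further treatment. A label tag also calls them a cell line. One group, KO, was a knockout of Nono (n = 3 libraries), and the other, WT, had the wild-type genotype (n = 3 libraries). Both groups otherwise shared these culture conditions. The labels do not say how the knockout was made, whether it is 1 clone, the age or sex of the animals, or whether the libraries of a group came from separate cultures. The p-values below therefore measure only the spread between these libraries, which may be technical.

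Translation of most messenger RNAs starts when a small ribosomal subunit, loaded with initiator tRNA by eIF2 and held open by eIF1, eIF1A and eIF3, is brought to the capped end of the message by the eIF4 factors. eIF4E binds the cap, eIF4G is the scaffold, and eIF4A unwinds the leader with the help of eIF4B and eIF4H. The exchange factor eIF2B recharges eIF2 with GTP after each round, and 4 stress-sensing kinases slow initiation by phosphorylating the alpha subunit of eIF2 so that it blocks eIF2B. The eIF4E-binding proteins (4E-BPs) compete with eIF4G for eIF4E until the growth-sensing kinase mTORC1 phosphorylates them. In vascular smooth muscle cells this machinery sets the rate of protein synthesis during growth. RNA levels, the only quantity measured here, do not show phosphorylation or protein amounts.

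Values are CPM, counts relative to the library's total after scaling by the trimmed mean of M-values (TMM), and the test is the quasi-likelihood test of edgeR across all 18732 genes that passed a filter on low counts. A gene passed the test when its p, adjusted over all these genes by the Benjamini-Hochberg method, was under 0.05. Library totals ran from 56529170 to 61670083 counts. Nono, the targeted gene, was at 523, 502 and 519 CPM across the WT libraries and 56.0, 54.8 and 51.1 CPM across the KO libraries, and each library matched its label. Of 10 smooth muscle markers, all tested, 5 were higher and 4 lower in KO, and their summed level was 74.1 to 89.2 CPM in WT and 249.9 to 252.5 CPM in KO. Acta2, Tagln, Cnn1, Lmod1 and Smtn were higher, and Myocd, Des, Mylk and Synpo2 were lower. Most were low in WT, where Smtn and Acta2 carried most of the sum. Means in WT and KO were 47.8 and 58.1 CPM for Smtn, 0.859 and 15.0 for Tagln, 0.0212 and 3.49 for Cnn1, and 1.41 and 7.52 for Lmod1. They were 4.29 and 0.848 CPM for Des, 8.14 and 3.91 for Mylk, and 1.26 and 0.457 for Synpo2. Myocd had a mean of 0.428 CPM in WT. Acta2, at 15.0, 17.1 and 17.2 CPM across the WT libraries and 159, 164 and 162 CPM across the KO libraries, carries most of the rise in the sum. Myh11, the smooth muscle myosin, stayed at 0.734 CPM or below in every library and did not pass, and Myocd was at 0 in KO. Of 8 fibroblast markers, 7 were higher and 0 lower in KO. Their sum was 875 to 1026 CPM in WT and 10628 to 11504 CPM in KO, with Lum and Thy1 at 0 in WT. The endothelial sum stayed at 3.7 CPM or below. Of 8 macrophage and leukocyte markers 5 were tested, 3 higher (Cd14, Csf1r and Cd68) and 2 lower (Cd74 and Lyz2). Their sum of 74.8 to 85.7 CPM in WT and 74.7 to 89.6 CPM in KO joins these opposite changes. Of 8 epithelial and mesothelial markers 4 were tested, 2 higher (Wt1 and Cdh1) and 2 lower (Krt19 and Msln, which carry most of the sum), and the sum was 77.01 to 84.8 CPM in WT and 9.87 to 13.4 CPM in KO. Epcam, Krt18 and the leukocyte marker Ptprc were at 0 in all libraries. The 4 Y-linked markers summed to 0 to 0.0795 CPM in WT and to 149.9 to 163.3 CPM in KO. The WT libraries thus held almost no Y-linked transcripts and the KO libraries did, so genotype and sex cannot be told apart in any result below, X-linked genes such as Eif1ax included. The marker genes separate the same libraries as the results, and the part of other cell types was not tested. In bulk RNA, fewer cells of a type and less RNA per cell cannot be told apart.

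Initiation factor transcripts made up a smaller part of the KO libraries. The 53 genes together took 1.38%, 1.31% and 1.37% of all counts in WT replicates 1 to 3 and 0.883%, 0.918% and 0.919% in KO. After TMM scaling the gap was smaller, with sums of 12381 to 13274 CPM in WT and 9284 to 9620 CPM in KO. Of the 52 genes tested, 31 were lower and 12 higher in KO, while 9 were not called. The lower members were 59.6% of those tested, beside 34.2% of all tested genes, and the higher ones 23.1%, beside 35.1%. Calls in either direction covered 43 of the 52 (82.7%), beside 69.3% of all tested genes. A decrease of at least 2-fold was called for 13 members, where 19.8% of all genes had one, and an increase of at least 2-fold for 4, where 21.6% had one. The median log2 fold change, KO against WT, was -0.51 over the tested members and 0.031 over all tested genes. With scaling by library totals these medians were -0.64 and -0.099. The 3 KO and the 3 WT values did not overlap for 44 of the 52 members, beside 75.5% of all tested genes. All KO libraries lay below all WT libraries for 31 members (37.1% of all tested genes) and above them for 13 (38.4%). The remaining member, Eif4e1b, an oocyte-type cap-binding gene, had 0 counts in all 6 libraries, which allows at most 0.0161 CPM in WT and 0.0174 CPM in KO at a limit of 3 counts over a group, for counting error only.

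**Figure D1:**
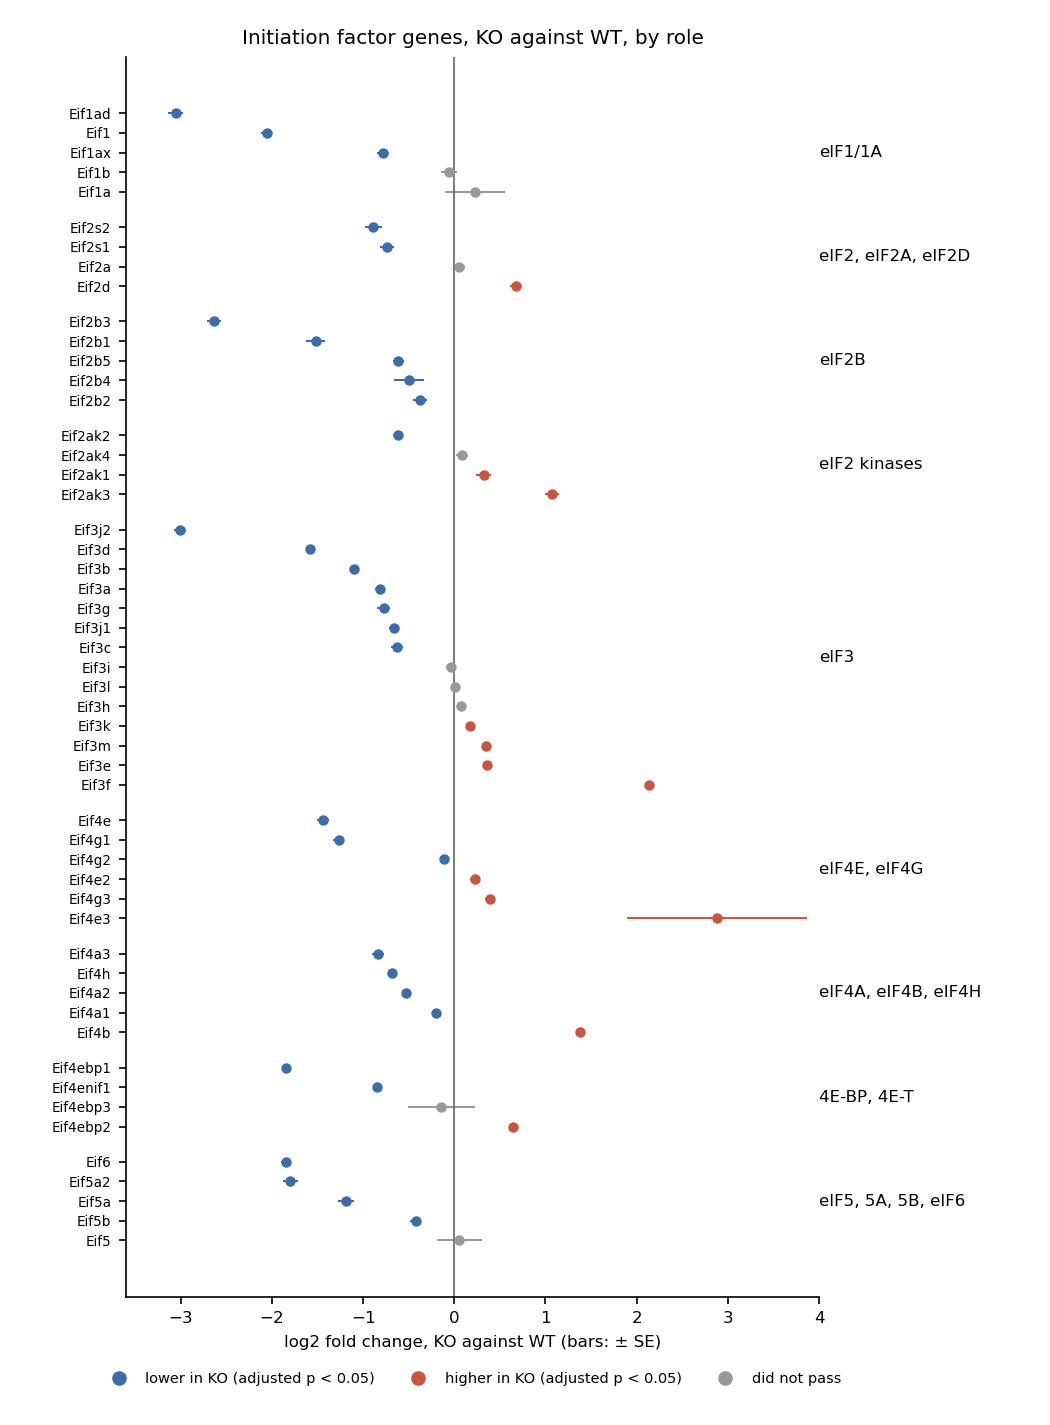
Log2 fold change of KO against WT for the 52 tested initiation factor genes, grouped by role, with bars of 1 standard error; blue points are lower, red points higher, and grey points did not pass the test. Most groups lie to the left of 0, all 5 eIF2B genes among them, while Eif3f, Eif4b, Eif2ak3 and Eif4e3 lie beyond 1 on the right.

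The genes named for eIF1 and eIF1A, factors that hold the small subunit ready for scanning, were lower or not called. Eif1, which guards start codon choice, had 908, 833 and 966 CPM across the WT libraries and 214, 208 and 228 CPM across the KO libraries. Every KO library lay far below every WT library, and the gene was 4.16-fold lower (log2 KO/WT -2.06, SE 0.064, adjusted p = 3.40e-08 by edgeR). Its close copy Eif1b, at 23.8, 25.2 and 25.2 CPM across the WT libraries and 22.0, 25.5 and 23.6 CPM across the KO libraries, overlapped between the groups (edgeR adjusted p = 0.558), and the coding sequences of the pair match in 81.1% of bases. Eif1ad is listed in this group only for its name, given for an eIF1A-like domain, and a part in scanning is not implied. It had, with Eif3j2, one of the 2 largest fitted decreases, at 174, 154 and 175 CPM across the WT libraries and 21.6, 18.6 and 20.3 CPM across the KO libraries. It was 8.31-fold lower (log2 KO/WT -3.06, SE 0.081, adjusted p = 1.59e-08 by edgeR), and no KO value came near a WT value. The exons of Eif1ad overlap those of Banf1 on the opposite strand over 15.3% of their length, and reads of the 2 genes may not be separable there. Eif1ax, the X-linked gene for eIF1A, which helps place the initiator tRNA, was at 251, 219.9 and 255 CPM across the WT libraries and 135, 149 and 137 CPM across the KO libraries (log2 KO/WT -0.78, SE 0.069, adjusted p = 1.40e-05 by edgeR). Eif1a, its autosomal counterpart, showed 55.0, 137 and 98.0 CPM across the WT libraries and 109.7, 115 and 115 CPM across the KO libraries and did not pass (edgeR adjusted p = 0.574). The spread of Eif1a came from the WT libraries, with replicate 1 low and replicate 2 high, while the KO libraries lay close together. Without WT replicate 1 its log2 fold change turned from 0.23 to -0.048. Over the shorter of their coding sequences, Eif1a and Eif1ax match in 85.6% of bases. Whether any reads were divided between them was not tested.

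Of eIF2, which carries the initiator tRNA, both subunit genes within the rule were lower in KO. Outside it, Eif2s3x was at a mean of 284 CPM (WT) and 146 CPM (KO). Eif2s3y was at 0 in every WT library and at 45.9, 52.1 and 50.3 CPM across the KO libraries. Eif2s1, the alpha subunit that the stress kinases phosphorylate, had 156, 131 and 149 CPM across the WT libraries and 82.6, 94.4 and 84.7 CPM across the KO libraries (log2 KO/WT -0.74, SE 0.079, adjusted p = 5.02e-05 by edgeR). Eif2s2, the beta subunit, had 295, 281 and 362 CPM across the WT libraries and 161, 168 and 178 CPM across the KO libraries (log2 KO/WT -0.89, SE 0.10, adjusted p = 6.83e-05 by edgeR). All KO values of each gene lay below all WT values, and WT replicate 3 was the highest for Eif2s2. A pair of factors that can deliver initiator or other tRNAs to the ribosome without eIF2 did not share this direction. Eif2d rose (log2 KO/WT 0.68, SE 0.067, adjusted p = 2.94e-05 by edgeR), with 41.6, 46.2 and 40.7 CPM across the WT libraries and 70.1, 66.7 and 68.3 CPM across the KO libraries. Eif2a was at 82.8, 74.1 and 82.1 CPM across the WT libraries and 79.1, 83.2 and 85.2 CPM across the KO libraries, with overlapping groups (edgeR adjusted p = 0.495).

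All 5 genes of eIF2B, the guanine nucleotide exchange factor that reactivates eIF2, were lower in KO, beside 34.2% of all tested genes. Eif2b3, the gamma subunit of its catalytic part, changed most, with 83.0, 82.9 and 82.4 CPM across the WT libraries and 12.6, 14.8 and 12.6 CPM across the KO libraries. The WT values were within 1 CPM of each other, and KO was 6.21-fold lower (log2 KO/WT -2.64, SE 0.082, adjusted p = 3.35e-08 by edgeR). Eif2b1, the alpha subunit of the regulatory part that senses phosphorylated eIF2, had 68.6, 59.1 and 67.3 CPM across the WT libraries and 25.2, 19.7 and 23.1 CPM across the KO libraries (log2 KO/WT -1.52, SE 0.10, adjusted p = 2.98e-06 by edgeR). Smaller decreases were seen in Eif2b5, the catalytic epsilon subunit (log2 KO/WT -0.61, adjusted p = 3.01e-05 by edgeR), Eif2b2, the beta subunit (log2 KO/WT -0.38, adjusted p = 0.00194 by edgeR), and Eif2b4, the delta subunit (log2 KO/WT -0.50, adjusted p = 0.0273 by edgeR). Within this complex the log2 fold changes thus ran from -2.64 to -0.38. Eif2b4 had the lowest CPM of the 5 in WT, and its call was lost in edgeR without WT replicate 1 (-0.37, adjusted p = 0.1005), WT replicate 2 (adjusted p = 0.0537), KO replicate 1 (adjusted p = 0.077) or KO replicate 3 (adjusted p = 0.0645). Its exons overlap those of Snx17 on the opposite strand over 7.85% of their length.

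The 4 eIF2 alpha kinases, each tied to a different stress, went in different directions. Eif2ak2 encodes PKR, which responds to double-stranded RNA, and was at 233, 228 and 226 CPM across the WT libraries and 152, 141 and 155 CPM across the KO libraries. It fell (log2 KO/WT -0.62, SE 0.049, adjusted p = 7.72e-06 by edgeR), with all KO libraries below all WT libraries. Eif2ak3 encodes PERK, the sensor of unfolded protein in the endoplasmic reticulum, and was at 21.1, 20.5 and 22.5 CPM across the WT libraries and 46.8, 44.2 and 43.7 CPM across the KO libraries. It was 2.10-fold higher (log2 KO/WT 1.07, SE 0.073, adjusted p = 2.82e-06 by edgeR), the reverse of PKR. Eif2ak1, for the heme-regulated kinase HRI, had 68.4, 54.1 and 62.4 CPM across the WT libraries and 75.4, 77.7 and 78.2 CPM across the KO libraries. Its increase (log2 KO/WT 0.32, SE 0.085, adjusted p = 0.00907 by edgeR) was called with TMM scaling but not with scaling by library totals (log2 fold change 0.19, adjusted p = 0.0593 by edgeR) or from FPKM (0.21, adjusted p = 0.0636 by limma). Its exons overlap those of Aimp2 on the opposite strand over 8.59% of their length. Eif2ak4, for GCN2, the sensor of uncharged tRNA, was at 48.4, 54.3 and 50.3 CPM across the WT libraries and 55.3, 54.8 and 52.0 CPM across the KO libraries and did not pass (edgeR adjusted p = 0.279). Set per transcript length, as deposited FPKM, which scales fragments by gene length and library size, Eif2ak2 made up 66.6, 68.2 and 66.3% in WT and 52.2, 49.5 and 52.5% in KO of the sum of the 4 kinase transcripts. Eif2ak3 took 5.25, 5.70 and 5.77% in WT and 13.4, 14.0 and 12.7% in KO. Eif2ak2 thus remained the highest of the 4 kinase transcripts in every library, with a smaller share in each KO library.

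**Figure D2:**
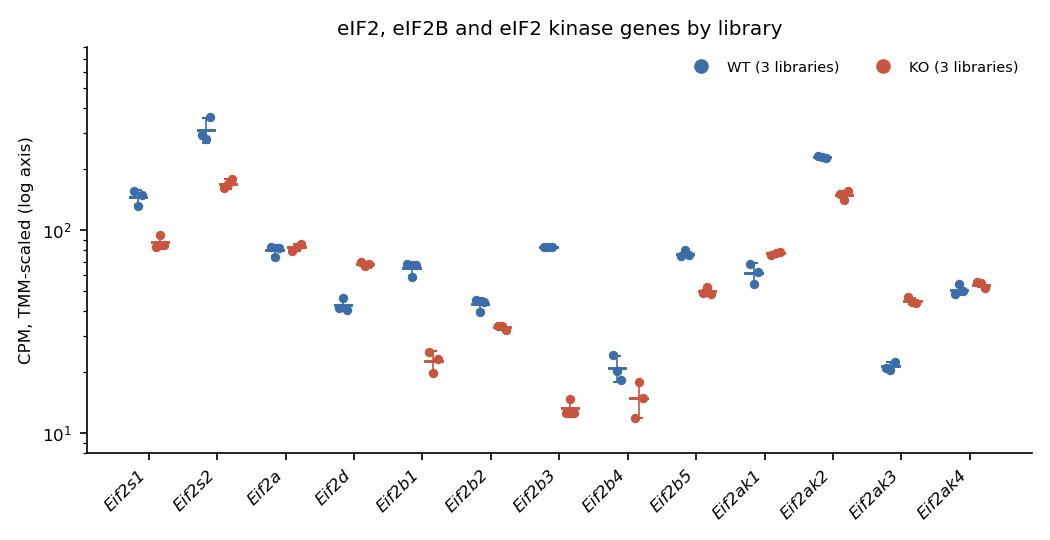
TMM-scaled CPM on a log axis for the eIF2, eIF2B and eIF2 kinase genes and for Eif2a and Eif2d, with 1 point per library, a bar at the mean and whiskers of 1 SD (blue WT, red KO, 3 libraries each). The KO points of all 5 eIF2B genes lie below the WT points, and those of Eif2ak3 and Eif2d lie above.

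The subunits of eIF3, the largest initiation factor and the platform that bridges the ribosome and eIF4G, divided into lower, higher and not called. Of 14 genes, 7 were lower (50%) and 4 higher (28.6%) in KO, beside 34.2% and 35.1% of all tested genes. With scaling by library totals or from the deposited FPKM 8 were lower and 3 higher. Eif3d, a subunit that can itself bind the cap of some messages, had 569.7, 523 and 559.6 CPM across the WT libraries and 178, 186 and 187 CPM across the KO libraries. It was 2.99-fold lower (log2 KO/WT -1.58, SE 0.047, adjusted p = 2.73e-08 by edgeR). Eif3b, which holds the RNA-binding edge of the complex, had 453, 424 and 450.4 CPM across the WT libraries and 197, 219 and 205 CPM across the KO libraries (log2 KO/WT -1.10, SE 0.052, adjusted p = 3.35e-07 by edgeR). Eif3a, the largest subunit and backbone of the particle (log2 KO/WT -0.82, adjusted p = 1.08e-06 by edgeR), Eif3c (log2 KO/WT -0.63, adjusted p = 2.81e-05 by edgeR) and Eif3g (log2 KO/WT -0.77, adjusted p = 1.43e-05 by edgeR) were also lower.

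Eif3f moved the other way and further than any other eIF3 gene that rose. It was at 91.2, 85.3 and 91.8 CPM across the WT libraries and 393, 396 and 391 CPM across the KO libraries. Each KO library was at least 4 times any WT library, and the gene was 4.40-fold higher (log2 KO/WT 2.14, SE 0.045, adjusted p = 5.62e-09 by edgeR). Eif3e, long known as the mouse mammary tumor virus integration gene Int6, had 285, 275 and 273 CPM across the WT libraries and 347, 357 and 362 CPM across the KO libraries (log2 KO/WT 0.36, SE 0.039, adjusted p = 5.65e-05 by edgeR). Eif3m (log2 KO/WT 0.35, adjusted p = 0.000293 by edgeR) rose by a similar amount. Eif3k (log2 KO/WT 0.18, adjusted p = 0.0131 by edgeR) was called higher with TMM scaling but not with library totals (log2 fold change 0.047, adjusted p = 0.387 by edgeR) or from FPKM (0.026, adjusted p = 0.614 by limma). Eif3h, at 434 ± 4.43 CPM (WT) and 457 ± 11.9 CPM (KO), did not pass (edgeR adjusted p = 0.098), nor did Eif3l (adjusted p = 0.824) or Eif3i (adjusted p = 0.585). With library totals Eif3i was lower (-0.16, adjusted p = 0.0159 by edgeR), and the signs of Eif3h and Eif3l turned.

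By place in the particle, a grouping made after the values were seen, the 8 subunits that carry PCI or MPN domains and form the octameric core held all 4 increases, 2 decreases and 2 genes that did not pass. Their summed level was 2384 to 2588 CPM in WT and 2412 to 2500.0 CPM in KO, ranges that overlap. This sum joins opposite changes, with Eif3f higher (log2 KO/WT 2.14) and Eif3a (-0.82) and Eif3c (-0.63) lower. Eif3f was at 91.2, 85.3 and 91.8 CPM across the WT libraries and 393, 396 and 391 CPM across the KO libraries. The overlap of the sums therefore does not show that the core genes were unchanged. The 6 other genes, Eif3b, Eif3d, Eif3g, Eif3i, Eif3j1 and Eif3j2, held 5 decreases and no increase, and summed to 1335 to 1447 CPM in WT and 616 to 652 CPM in KO. The difference between these subgroups was not tested.

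Eif3j1 and Eif3j2 both encode the loosely bound j subunit, and their coding sequences differ by 2 bases over the shorter one (99.7% identity). Eif3j2 had 99.5, 90.6 and 90.4 CPM across the WT libraries and 11.4, 11.3 and 12.1 CPM across the KO libraries, 8.05-fold lower in KO (log2 KO/WT -3.01, SE 0.07, adjusted p = 8.90e-09 by edgeR). Eif3j1 had 123, 115 and 123 CPM across the WT libraries and 72.5, 77.6 and 78.1 CPM across the KO libraries (log2 KO/WT -0.66, SE 0.054, adjusted p = 9.06e-06 by edgeR). Both were lower with no overlap, but reads of the coding part can belong to either gene, and the 2 fold changes are uncertain to that extent. Exons of Eif3j1 also overlap those of Spg11 on the opposite strand over 19.0% of their length, and those of Eif3d overlap the antisense gene Gm17638 over 43.3%.

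**Figure D3:**
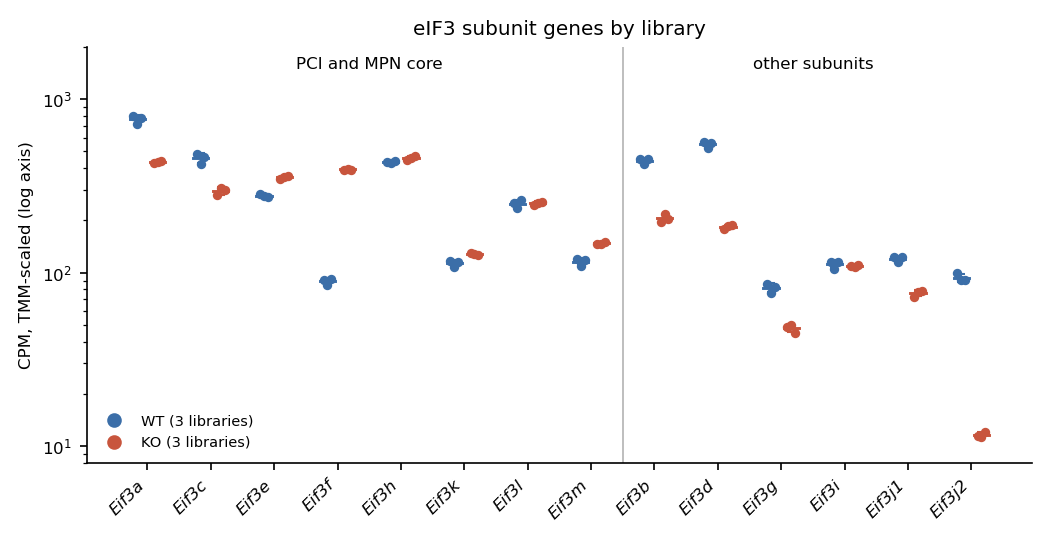
TMM-scaled CPM on a log axis for the 14 eIF3 subunit genes, the PCI and MPN core on the left and the other subunits on the right of the line, with 1 point per library, the mean and whiskers of 1 SD (blue WT, red KO). Eif3f stands out with KO points above WT points, and Eif3j2 and Eif3d with KO points far below.

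The transcripts of the main cap-binding protein and of its main scaffold were both lower in KO. Eif4e, whose product binds the cap and limits initiation in many cells, had 201, 205 and 205 CPM across the WT libraries and 76.9, 67.9 and 79.7 CPM across the KO libraries. KO was 2.72-fold lower (log2 KO/WT -1.44, SE 0.065, adjusted p = 2.39e-07 by edgeR), with no overlap between the groups. Eif4g1, the scaffold that ties eIF4E to eIF4A and eIF3, had 1226, 1055 and 1200.4 CPM across the WT libraries and 468, 478 and 499 CPM across the KO libraries (log2 KO/WT -1.27, SE 0.061, adjusted p = 3.46e-07 by edgeR). Eif4g3 and Eif4e2, forms of the same families, did not fall with them. Eif4g3, a second full-length scaffold, had 162, 164 and 154 CPM across the WT libraries and 217, 202 and 209.8 CPM across the KO libraries and rose (log2 KO/WT 0.39, SE 0.048, adjusted p = 0.000116 by edgeR). Eif4e2, whose product 4EHP binds the cap without recruiting eIF4G and represses translation, had 85.9, 78.2 and 83.9 CPM across the WT libraries and 98.4, 93.3 and 98.6 CPM across the KO libraries (log2 KO/WT 0.23, SE 0.056, adjusted p = 0.00666 by edgeR). That small increase was not called with library totals (0.098, adjusted p = 0.127 by edgeR) or from FPKM (0.029, adjusted p = 0.614 by limma). Eif4g2, also called DAP5, which lacks the eIF4E-binding site, was at 768 ± 23.5 CPM (WT) and 708 ± 9.95 CPM (KO) (log2 KO/WT -0.12, SE 0.037, adjusted p = 0.0217 by edgeR). This call was lost without WT replicate 1 (-0.098, adjusted p = 0.0992 by edgeR), WT replicate 3 (adjusted p = 0.114), KO replicate 1 (adjusted p = 0.0708) or KO replicate 3 (adjusted p = 0.056).

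Eif4e3, the other cap-binding family member measured, was barely counted, with 26, 8 and 0 counts in WT and 41, 74 and 119 counts in KO. Its increase (log2 KO/WT 2.88, SE 0.98, adjusted p = 0.0318 by edgeR) was lost in edgeR without WT replicate 2 (adjusted p = 0.103), KO replicate 2 (adjusted p = 0.07) or KO replicate 3 (adjusted p = 0.0959). Exons of Eif4e3 overlap those of the predicted gene Gm20696 on the same strand over 14.8% of their length. Per length, Eif4e was 53.2, 53.3 and 54.2% in WT and 27.3, 25.5 and 28.4% in KO of the eIF4E family's FPKM, and Eif4e2 held nearly all of the rest. Eif4g1 was 88.9, 87.4 and 89.0% in WT and 69.0, 73.7 and 70.8% in KO of the FPKM of the 2 full-length scaffolds. In both families the share of the leading WT form was lower in each KO library than in any WT library.

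The start regions of some members are shown for a hexamer found in members that were lower, higher and not called. RefSeq promoter windows of build GRCm38.p6, reaching 250 bases before to 50 after the start, were at hand for 41 of the 53 members. CACGTG, the E-box bound by Myc and other factors of its class, lay in the windows of 10 members (24.4%), beside 11.3% of 10810 tested protein-coding genes with a window. It was found in 7 of 26 lower members with a window (26.9%: Eif3a, Eif4a1, Eif4e, Eif4g1, Eif4h, Eif5a and Eif5a2). Among higher members it was in 2 of 10 (20%: Eif3f and Eif3k), and among those that did not pass in 1 of 5 (20%: Eif1b). The letters read the same on both strands. Upstream stretches of 4 members are printed, all on the plus strand, 5′ to 3′ and ending 1 base before the start, with CACGTG in capitals. They are Eif4e at chr3:138527018-138527267, Eif4g1 at chr16:20672477-20672726, Eif5a2 at chr3:28781027-28781276 and, as a member that rose, Eif3f at chr7:108934165-108934414.
Eif4e: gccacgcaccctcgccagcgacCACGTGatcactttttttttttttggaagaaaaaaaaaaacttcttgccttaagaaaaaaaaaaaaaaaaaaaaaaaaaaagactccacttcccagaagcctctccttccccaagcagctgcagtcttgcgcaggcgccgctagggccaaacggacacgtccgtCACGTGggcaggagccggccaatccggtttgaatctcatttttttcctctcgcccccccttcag
Eif4g1: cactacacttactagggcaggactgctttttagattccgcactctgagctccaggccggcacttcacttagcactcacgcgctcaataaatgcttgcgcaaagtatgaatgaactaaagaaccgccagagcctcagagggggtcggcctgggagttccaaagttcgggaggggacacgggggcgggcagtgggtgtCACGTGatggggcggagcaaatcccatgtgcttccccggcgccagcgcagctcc
Eif5a2: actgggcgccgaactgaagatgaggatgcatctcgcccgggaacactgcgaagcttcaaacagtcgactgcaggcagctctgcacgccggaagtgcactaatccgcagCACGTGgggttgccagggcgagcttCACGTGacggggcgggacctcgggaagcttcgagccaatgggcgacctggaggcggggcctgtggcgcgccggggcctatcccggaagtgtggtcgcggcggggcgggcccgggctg
Eif3f: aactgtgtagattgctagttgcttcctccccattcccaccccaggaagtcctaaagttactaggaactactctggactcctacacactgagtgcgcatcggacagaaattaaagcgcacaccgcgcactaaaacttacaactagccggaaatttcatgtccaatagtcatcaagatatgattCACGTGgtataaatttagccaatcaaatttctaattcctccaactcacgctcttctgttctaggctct

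The hexamer, also present at base 16 of Eif4g1 after the start, begins at bases -228 and -64 of Eif4e, at -54 of Eif4g1, at -142 and -117 of Eif5a2 and at -68 of Eif3f, counted back from the start. Eif4e, Eif4g1 and Eif5a2 were lower and Eif3f was higher, so the letters occurred with both directions. CCGGAAG, the core of sites for ETS factors, was searched on both strands and lay in 16 of the 41 members (39.0%), beside 19.0% of the tested protein-coding genes. By direction these were 10 of 26 lower, 4 of 10 higher and 2 of 5 members that did not pass. TATAAA was found in 3 members (7.32%) and 8.96% of the tested genes, and TGATGNAA in no member and 2.92%, each on both strands. The NRF1 motif was found in 1 member (2.44%) and 2.19% of the tested genes. A run of at least 6 pyrimidines that opens with C within 5 bases of the start was in 6 members (14.6%) and 12.8% of the tested genes. Matches describe letters in the window and do not show that a factor binds. The motifs were chosen with the values in view, and the windows of genes with several starts were pooled. The other window of Eif4e, at chr3:138525941-138526240, held no CACGTG.

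The helicase genes fell and one of their cofactors rose. Eif4a1, the main helicase, had 502, 453 and 475 CPM across the WT libraries and 413, 423 and 412 CPM across the KO libraries, a small decrease (log2 KO/WT -0.20, SE 0.046, adjusted p = 0.00481 by edgeR). Eif4a2, its close relative, had 259, 252 and 255 CPM across the WT libraries and 185, 173 and 175 CPM across the KO libraries (log2 KO/WT -0.52, SE 0.043, adjusted p = 8.84e-06 by edgeR). Eif4a3, the related helicase of the exon junction complex rather than of initiation, had 141, 142 and 136 CPM across the WT libraries and 75.6, 86.5 and 72.9 CPM across the KO libraries (log2 KO/WT -0.83, SE 0.07, adjusted p = 1.00e-05 by edgeR). Eif4h, a cofactor that stimulates eIF4A, had 545, 513 and 550.0 CPM across the WT libraries and 329, 344 and 329 CPM across the KO libraries (log2 KO/WT -0.68, SE 0.043, adjusted p = 1.64e-06 by edgeR). Eif4b, the other cofactor of eIF4A and a target of the growth-regulated S6 kinases, had 478, 457 and 477 CPM across the WT libraries and 1222, 1189 and 1248 CPM across the KO libraries. It was 2.59-fold higher in KO (log2 KO/WT 1.37, SE 0.038, adjusted p = 2.01e-08 by edgeR), and the lowest KO library was more than 2 times the highest WT library. Per length, Eif4b stood at 0.421 ± 0.041 times the FPKM of Eif4a1 in WT and 1.29 ± 0.18 times in KO (SD, n = 3 each). Of the 5 genes in this group 4 were lower (80%) and 1 higher (20%), under library totals as under TMM. Of all tested genes 34.2% were lower and 35.1% higher under TMM.

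**Figure D4:**
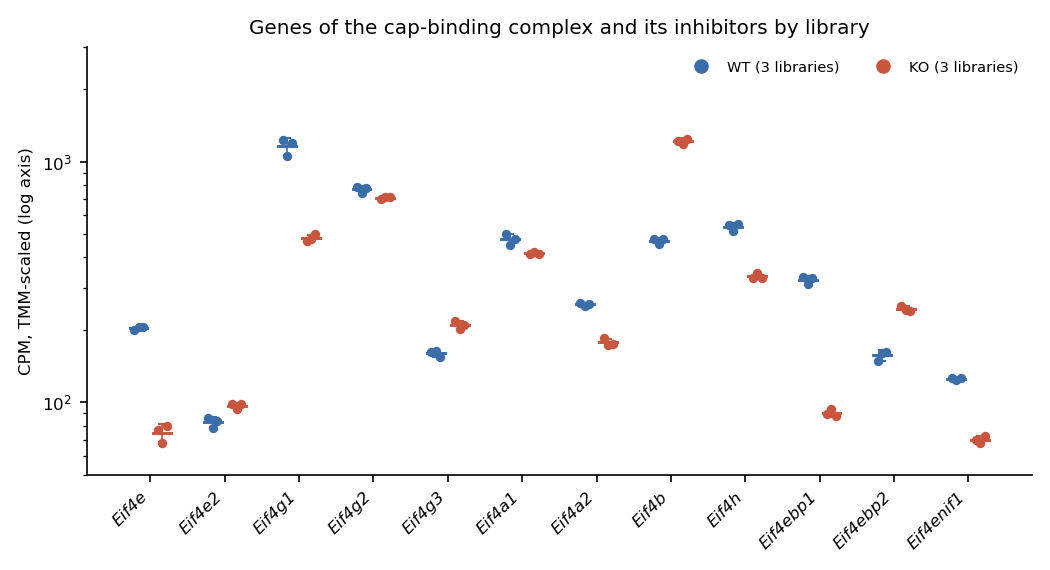
TMM-scaled CPM on a log axis for genes of the cap-binding complex, the eIF4A helicases and cofactors and the eIF4E inhibitors, with 1 point per library, the mean and whiskers of 1 SD (blue WT, red KO, 3 libraries each). Eif4e, Eif4g1 and Eif4ebp1 are lower in KO, and Eif4b, Eif4ebp2 and Eif4g3 are higher.

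The transcripts of the 2 main inhibitors of eIF4E moved in opposite directions. Eif4ebp1 encodes 4E-BP1 and is known as a target of the stress transcription factor ATF4. It had 332, 309.6 and 327 CPM across the WT libraries and 89.0, 93.7 and 87.8 CPM across the KO libraries, 3.58-fold lower in KO (log2 KO/WT -1.84, SE 0.049, adjusted p = 1.61e-08 by edgeR). Eif4ebp2, for 4E-BP2, had 148, 160.5 and 162 CPM across the WT libraries and 252, 243 and 240.3 CPM across the KO libraries and rose (log2 KO/WT 0.65, SE 0.05, adjusted p = 5.90e-06 by edgeR). Eif4ebp3 was low, at 0.713, 1.17 and 0.668 CPM across the WT libraries and 0.921, 0.709 and 0.679 CPM across the KO libraries, and did not pass (edgeR adjusted p = 0.749). Its exons share 67.3% of their length with another annotated protein-coding gene on the same strand. That gene had a mean of 1318 counts, beside 48.3 for Eif4ebp3, and reads of the shared part may not be assignable to either. Eif4enif1, for the 4E transporter that takes eIF4E into the nucleus and to processing bodies, had 126, 124 and 127 CPM across the WT libraries and 69.5, 67.6 and 72.2 CPM across the KO libraries (log2 KO/WT -0.85, SE 0.049, adjusted p = 9.71e-07 by edgeR).

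Compared per length, Eif4ebp1 made up 86.1, 83.9 and 84.9% in WT and 49.7, 52.1 and 50.6% in KO of the summed FPKM of the 3 inhibitor genes, and Eif4ebp2 13.4, 15.2 and 14.7% in WT and 48.9, 46.9 and 48.4% in KO. The sum itself was 173.8 ± 1.96 FPKM in WT and 74.5 ± 1.59 FPKM in KO (SD, n = 3 each). Relative to Eif4e, itself lower in KO, the sum came to 4.01 ± 0.12 times the FPKM of Eif4e in WT and 5.21 ± 0.46 times in KO. The lowest KO ratio, 4.79, lay above the highest WT ratio, 4.13. For Eif4ebp1 alone the ratio to Eif4e went the other way, at 3.44, 3.47 and 3.31 in WT and 2.55, 2.97 and 2.42 in KO, also without overlap. With 3 libraries a group, an exact permutation test could not go below p = 0.10, and none was run on these ratios. They compare transcripts, and say nothing of protein or of phosphorylation.

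**Figure D5:**
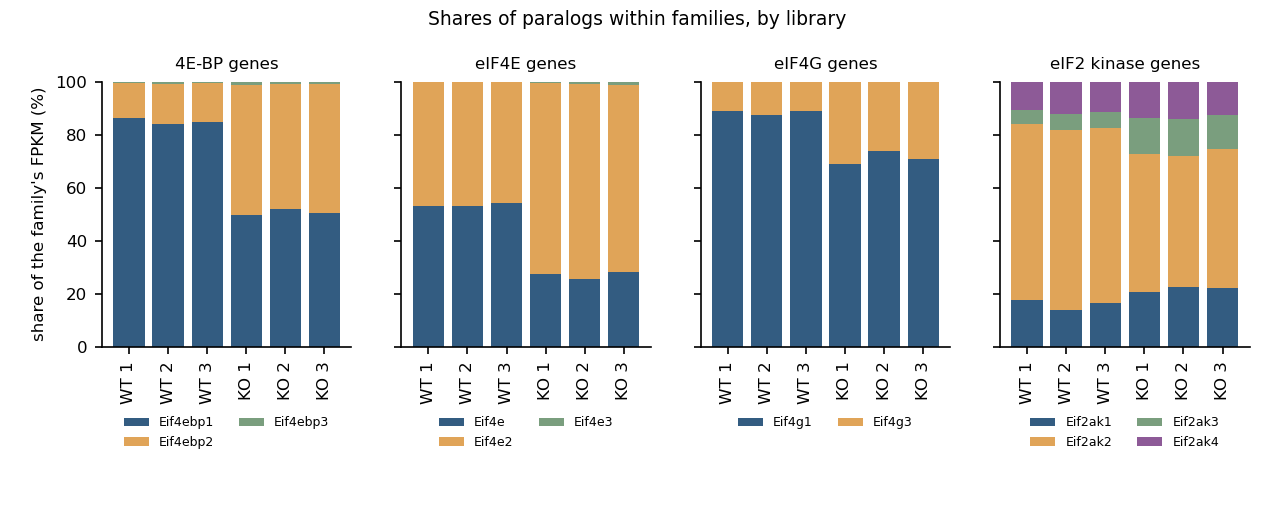
Share of each gene in the summed FPKM of its family, one stacked bar per library, for the 4E-BP, eIF4E, full-length eIF4G and eIF2 kinase families. Eif4ebp1 falls from 83.9% to 86.1% of its family in WT to 49.7% to 52.1% in KO, and Eif4e from 53.2% to 54.2% to 25.5% to 28.4%.

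Among factors of the late steps, 4 of 5 genes were lower in KO (80%, beside 34.2% of all tested genes) and none was called higher. Eif6, which keeps the large ribosomal subunit from joining too early and also acts in its assembly, had 290.1, 270.5 and 305 CPM across the WT libraries and 79.0, 82.5 and 79.6 CPM across the KO libraries, 3.59-fold lower (log2 KO/WT -1.84, SE 0.055, adjusted p = 2.87e-08 by edgeR). Eif5a encodes the hypusine-bearing factor that eases peptide bond formation at difficult sequences, and had 812, 683 and 701 CPM across the WT libraries and 290.4, 353 and 319 CPM across the KO libraries (log2 KO/WT -1.19, SE 0.09, adjusted p = 8.58e-06 by edgeR). Eif5a2, its tissue-restricted paralog, had 36.9, 37.8 and 33.9 CPM across the WT libraries and 10.1, 10.6 and 10.5 CPM across the KO libraries (log2 KO/WT -1.80, SE 0.083, adjusted p = 2.79e-07 by edgeR). It stayed the minor form, at 1.15, 1.44 and 1.26% in WT and 0.904, 0.789 and 0.859% in KO of the pair's FPKM. Eif5b, the GTPase that joins the ribosomal subunits, was lower as well (log2 KO/WT -0.42, adjusted p = 0.000328 by edgeR), and its exons overlap those of Rev1 on the opposite strand over 16.8% of their length. Eif5, which triggers GTP hydrolysis by eIF2, had 183, 223 and 186 CPM across the WT libraries and 134, 244 and 236 CPM across the KO libraries and did not pass (edgeR adjusted p = 0.858). KO replicate 1 lay far below the other KO libraries. Without it the gene was called higher (log2 fold change 0.28, adjusted p = 0.029), and without KO replicate 2 or 3 the sign turned (-0.087 and -0.059).

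Levels between genes, compared per length as group means of the deposited FPKM, changed order. Eif1 was the highest member in WT (701 FPKM in WT and 148 FPKM in KO), followed by Eif5a (508 FPKM in WT and 203 FPKM in KO) and Eif3h (307 FPKM in WT and 296 FPKM in KO). In KO Eif3h ranked first and Eif4b second (118 FPKM in WT and 269.7 FPKM in KO), after rank 19 for Eif4b in WT. Eif1 took rank 6 in KO. Eif3f went from rank 34 in WT to rank 7 in KO (34.0 FPKM in WT and 134 FPKM in KO), and Eif1ad from rank 25 to rank 47 (65.0 FPKM in WT and 7.21 FPKM in KO). Library by library, Eif3h was at 305, 308 and 307 FPKM in WT and 288, 296 and 305 FPKM in KO, and Eif4b at 118, 118 and 117 FPKM in WT and 269, 264 and 276 FPKM in KO. The 50 members above 10 CPM in both groups had at least 585 counts in every library.

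Genes of the same pathway outside the rule were read from 6 lists. Over all of them, 60 of 61 gene identifiers were tested, 35 were lower (58.3%) and 18 higher (30%), beside 34.2% and 35.1% of all tested genes. The untested one was a second identifier of Ddit3, with 1 count in each library. With scaling by library totals the counts were 38 and 14, and from the deposited FPKM 36 and 12.

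Among the adaptors and regulators around eIF2 and its kinases, 4 of 9 were lower (44.4%) and 5 higher (55.6%), beside 34.2% and 35.1% of all tested genes. Ppp1r15b, the constitutive adaptor of the phosphatase that restores eIF2, fell from 294 ± 9.49 CPM (WT) to 96.0 ± 4.25 CPM (KO) (SD, n = 3) (log2 KO/WT -1.61, SE 0.051, adjusted p = 3.58e-08 by edgeR). Ppp1r15a, its stress-induced counterpart GADD34, had 201, 214 and 102 CPM across the WT libraries and 28.6, 26.0 and 30.6 CPM across the KO libraries (log2 KO/WT -2.60, SE 0.31, adjusted p = 0.000607 by edgeR). WT replicate 3 was low for Ppp1r15a beside the other WT libraries. Abcf1, an ATPase that associates with eIF2, fell from 230.3 ± 6.27 CPM (WT) to 119 ± 2.62 CPM (KO). Impact, which restrains GCN2, rose from 111 ± 1.31 CPM (WT) to 285 ± 7.40 CPM (KO) (log2 KO/WT 1.36, SE 0.041, adjusted p = 3.11e-08 by edgeR), and Prkra, the protein activator of PKR known as PACT, rose from 10.1 ± 1.67 CPM (WT) to 30.4 ± 0.844 CPM (KO). Of 9 gene identifiers in the list of ATF4 and genes it drives, all 8 that were tested were lower, beside 34.2% of all tested genes. Their median log2 fold change was -3.05. Chac1 (log2 KO/WT -6.85, adjusted p = 5.29e-10 by edgeR) and Psat1 (log2 KO/WT -3.36, adjusted p = 1.02e-09 by edgeR) had the smallest p-values there.

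Upstream of the cap complex, the mTORC1 and MNK list had 5 lower, 5 higher and 4 genes that did not pass. Its shares, 35.7% lower and 35.7% higher, were near the 34.2% and 35.1% of all tested genes. Rheb, the GTPase that switches on mTORC1, fell from 219 ± 7.11 CPM (WT) to 85.4 ± 0.848 CPM (KO) (log2 KO/WT -1.36, SE 0.045, adjusted p = 4.45e-08 by edgeR), and Larp1, which represses messages with a terminal oligopyrimidine tract, fell from 444 ± 13.2 CPM (WT) to 200.2 ± 3.51 CPM (KO). Mknk1, one of the kinases that phosphorylate eIF4E, was at 110.5 ± 5.64 CPM (WT) and 26.0 ± 2.15 CPM (KO) (log2 KO/WT -2.08, SE 0.077, adjusted p = 8.08e-08 by edgeR). Pdcd4, an inhibitor of eIF4A, rose from 28.8 ± 0.758 CPM (WT) to 58.2 ± 4.07 CPM (KO) (log2 KO/WT 1.02, SE 0.072, adjusted p = 3.48e-06 by edgeR), as did Akt1s1, the mTORC1 inhibitor PRAS40 (log2 KO/WT 0.89, adjusted p = 4.01e-06 by edgeR). Of 5 genes of the poly(A) tail and closed loop, 4 were lower (80%) and 0 higher, beside 34.2% and 35.1% of all tested genes. Paip2b was lower (log2 KO/WT -0.98, adjusted p = 3.92e-07 by edgeR). Pabpc1, for the main poly(A)-binding protein, fell from 1721 ± 50.3 CPM (WT) to 1216 ± 20.7 CPM (KO).

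Other initiation and recycling factors gave 8 lower (66.7%) and 3 higher (25%) of 12, beside 34.2% and 35.1% of all tested genes. Abce1, the recycling ATPase, fell from 393 ± 34.6 CPM (WT) to 162 ± 3.68 CPM (KO) (log2 KO/WT -1.28, SE 0.066, adjusted p = 5.22e-07 by edgeR) and Denr, a reinitiation factor, fell from 120.4 ± 1.62 CPM (WT) to 55.2 ± 1.77 CPM (KO) (log2 KO/WT -1.12, SE 0.05, adjusted p = 2.20e-07 by edgeR). The X-linked gene Mcts1, whose product partners that of Denr as 1 complex, rose from 18.2 ± 0.858 CPM (WT) to 35.6 ± 1.34 CPM (KO) (log2 KO/WT 0.97, SE 0.077, adjusted p = 7.44e-06 by edgeR). Mcts2, of the same list, went the other way, from 16.3 ± 1.53 CPM (WT) to 7.61 ± 0.506 CPM (KO) (log2 KO/WT -1.10, SE 0.117, adjusted p = 4.69e-05 by edgeR). Ddx3x, an X-linked helicase of initiation, rose from 376 ± 15.9 CPM (WT) to 509 ± 20.8 CPM (KO), and it has a Y-linked counterpart, Ddx3y, among the markers above. Elongation and termination factors split into 6 lower (50%) and 5 higher (41.7%) of 12, beside the same shares of all tested genes. Eef2, the translocase, rose from 1853 ± 56.7 CPM (WT) to 5825 ± 102 CPM (KO) (log2 KO/WT 1.65, SE 0.037, adjusted p = 7.05e-09 by edgeR), and Eef1a1, which brings aminoacyl-tRNA, rose from 2915 ± 155 CPM (WT) to 8141 ± 223 CPM (KO) (log2 KO/WT 1.48, SE 0.047, adjusted p = 3.71e-08 by edgeR). The release factor genes Gspt1 (log2 KO/WT -1.33, adjusted p = 9.97e-08 by edgeR) and Etf1 (log2 KO/WT -1.29, adjusted p = 2.02e-07 by edgeR) were lower. The summed CPM of this list was 7342 to 8052 in WT and 15757 to 16363 in KO, and Eef1a1 and Eef2 decided its direction. Without these 2 genes the other 10 summed to 2818 to 3149 CPM in WT and 1991 to 2031 CPM in KO, and the median log2 fold change of the list was -0.27.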

How the data were processed

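RNA of 6 libraries was sequenced, with groups and replicate numbers from the titles. The authors deposited raw read counts and FPKM values per Ensembl gene, per the file headers. CASAVA 1.8, HISAT2, SAMtools 1.3.1, edgeR and build GRCm39 appear, without roles, in the submitters' processing notes. Neither the read counter nor its strand setting is given in the sources used here. GENCODE M21 supplied symbols and biotypes for 98.38% of IDs.

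Counts passing filterByExpr were scaled by TMM factors of 0.952 to 1.06, and KO was set against WT, without covariates, in a robust quasi-likelihood fit (edgeR 4.0.16, R 4.3.3). The SE is the size of the log2 fold change over the square root of its F statistic. Replicates of a group were distinct libraries, with chi-square values of 22.6 to 34.8 per degree of freedom. Counts were simulated for KO against WT over 18732 genes, with 50 genes changed at each fold. Of genes changed 1.5-fold 14% were recovered, of those changed 2-fold 68%, and of those changed 4-fold or 8-fold 98%. Of 148 calls 9 were false. In the data 69.3% of genes were called, a far larger share, so these rates do not carry over to the test used above. Alternatives were DESeq2 1.42.0, other scalings and filters, limma 3.58.1 on voom values and on log2(FPKM + 0.1) and log2(FPKM + 1), the replicate block, an adjusted p under 0.01 and leaving out each library. Coding sequences were aligned with edlib 1.3.9.post1.

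The rule took members by name, but the rule, the lists and the tests were chosen with earlier results of these data known. Each member is reported. Per-library values are given for a fixed set and for up to 2 genes per direction and role with the smallest adjusted p, and pathway genes are named by the same limit. Ppp1r15a, Mknk1, Mcts2, the eIF3 subgroups, the motifs and the ratios between genes were chosen after their values were seen.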

Additional observations from a re-analysis of the deposited data

How the results depend on the processing

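Of the 43 members that passed, 37 had the same call in every alternative run, 29 of the 31 lower and 8 of the 12 higher. The others were Eif2b4, Eif4g2, Eif2ak1, Eif3k, Eif4e2 and Eif4e3. Over all alternatives 9 to 13 members were higher and 29 to 32 lower, and no member that passed changed sign. Signs turned in members that did not pass, and the cause was not tested. With library totals the log2 fold changes were -0.046 for Eif2ak4, -0.078 for Eif2a, -0.054 for Eif3h, -0.12 for Eif3l and -0.075 for Eif5. From log2(FPKM + 0.1) and log2(FPKM + 1) they were -0.012 and -0.011 for Eif2ak4, -0.0054 and -0.0053 for Eif2a, -0.052 and -0.052 for Eif3h, -0.11 and -0.11 for Eif3l, and -0.034 and -0.034 for Eif5. Eif3l was at -0.00079 with no filter. Leaving out 1 library at a time gave -0.028 to 0.057 for Eif3l (negative without WT replicate 2), -0.048 to 0.57 for Eif1a (negative without WT replicate 1), -0.29 to 0.16 for Eif4ebp3 (positive without WT replicate 2) and -0.087 to 0.28 for Eif5 (negative without KO replicate 2 or, at -0.059, KO replicate 3). Same-numbered libraries did not deviate together (correlations -0.0237, 0.018 and -0.00904), so the numbers were not taken to pair them. With the replicate block, 11 members were higher and 29 lower, and of all genes 6214 were higher and 6019 lower, in place of 6578 and 6402. The calls lost under the block were Eif2b4 (adjusted p = 0.0603), Eif4g2 (adjusted p = 0.0638) and Eif4e3 (adjusted p = 0.0924 by edgeR). Low counts limit Eif4e3 and Eif4ebp3, and the shared exons also limit Eif4ebp3.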
